A study of Mus musculus with 7 samples.

Results

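The signal transducers and activators of transcription (STATs) and the Janus kinases (JAKs) were described for the 9 genes Stat2, Stat3, Stat4, Stat5a, Stat5b, Stat6, Jak1, Jak2 and Jak3, chosen by name from the 23930 genes of the count tables. All 9 were in the tables and all 9 passed the filter on low counts, with 11429 genes tested in all. Counts came from targeted RNA sequencing, in which a kit amplifies 1 short amplicon per gene, so a count is a level at 1 place of the gene and levels are not compared between genes. The 7 libraries were sorted mouse bone marrow progenitors in 4 groups. Common myeloid progenitors (CMPs), the precursors of granulocytes, monocytes, red cells and platelets, came from BL/6 (C57BL/6) control mice in 2 libraries and from pMT-10 mice in 2 libraries. Also from pMT-10 mice came 2 libraries of lineage-negative, SCA-1+ and c-KIT+ (LSK) cells positive for CD150 and CD48, and haematopoietic stem cells (HSC) in 1 library. The pMT-10 mouse overexpresses interleukin-10 (IL-10) from a transgene driven by a zinc-responsive metallothionein promoter. Mice of both strains, controls included, drank zinc for 15 days, and the labels do not say which cells express the transgene, how the CMP and HSC gates were set or whether the libraries within a group are from different mice. P-values therefore measure the spread between these libraries, which may be technical.

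A cytokine receptor without enzyme activity of its own carries JAKs on its intracellular chains. Ligand brings the chains together, the JAKs phosphorylate each other and the receptor, and STATs dock, are phosphorylated in turn, pair up and enter the nucleus as transcription factors. In blood formation, JAK2 with STAT5 serves the erythropoietin and GM-CSF receptors, JAK1 with STAT3 serves IL-10 and IL-6 family receptors, JAK3 binds the common gamma chain, and STAT2 joins IRF9 in the response to type I interferon. Activity of these proteins is set by phosphorylation, which RNA counts do not measure.

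The counts were deposited in 2 tables, one for each sequencing chip, called run 1 (both pMT-10 CMP and both LSK CD150+CD48+ libraries) and run 2 (both BL/6 CMP libraries and the HSC library). Strain and run therefore coincide in the CMPs and cannot be told apart there. Comparisons within 1 run were LSK CD150+CD48+ cells against pMT-10 CMPs and HSC against BL/6 CMPs, and the other 4 crossed runs. HSC and LSK CD150+CD48+ cells differ from BL/6 CMPs in both strain and population, which cannot be told apart in those comparisons. Library totals ran from 7372430 to 13854314 counts, and 3 counts, the most that a count of 0 leaves possible, came to 0.216 to 0.397 CPM (counts relative to the scaled size of the library). Across all tested genes the SD of the log2 difference within a pair was 0.806 for the pMT-10 CMPs, 0.398 for the BL/6 CMPs and 0.479 for the LSK CD150+CD48+ cells. The Il10 amplicon had 0 to 2 counts in every library. Of the sort markers, Ly6a (SCA-1) had 1 and 25 counts in BL/6 CMPs, 176 and 242 in pMT-10 CMPs, 2785 and 3458 in the LSK CD150+CD48+ pair and 2502 in HSC. Cd48 had 49 counts in HSC against 544 and 563 in the LSK CD150+CD48+ libraries. Of the 8 sort markers tested by edgeR, 3 were higher (Ly6a, Cd48 and Fcgr3) and 2 lower (Kit and Slamf1) in pMT-10 than in BL/6 CMPs. These had an adjusted p under 0.05, and Cd34, Flt3 and Procr did not. Mean Kit was 118 against 288 CPM and mean Cd48 61.9 against 19.2 CPM. The CMPs compared by strain thus differed in genes used for sorting, and the part of this in the strain differences below was not tested. The T cell genes Cd3d, Cd3e and Cd3g had at most 1 count in any library. Markers of B and plasma cells summed to 16.1 to 60.8 CPM, of mature neutrophils to 2.1 to 19.5 CPM and of monocytes and macrophages to 7.5 to 23.4 CPM.

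The genes lie on 6 chromosomes (mm10, GENCODE M21). Stat5b (chromosome 11, 100780731 to 100850724, minus strand), Stat5a (100859351 to 100885169, plus strand) and Stat3 (100885098 to 100939540, minus strand) are neighbours within 159 kb, with 8626 bases between Stat5b and Stat5a. Stat5a and Stat3 overlap by 72 bases at their 3′ ends, and the sources used here do not say whether reads were counted by strand or where the amplicons lie. Stat5a and Stat5b are also close paralogs, so reads that fit both could be assigned to either. Stat6 (chromosome 10, 127642986 to 127660957) and Stat2 (128270559 to 128292849) are 609.6 kb apart, both on the plus strand. Stat4 is on chromosome 1, Jak1 on chromosome 4, Jak3 on chromosome 8 and Jak2 on chromosome 19.

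Promoter windows of 300 bases (250 before to 50 after a start site, RefSeq, GRCm38.p6) matched all 9 genes, with 12 windows. They were searched on both strands for a STAT dimer element of the letters TTCNNNGAA (GAS) and for the core of the interferon-stimulated response element (ISRE), GAAA repeated after a gap of 2 bases, the type that STAT2 with IRF9 binds. No window of the 9 genes held the first, which was present in 8.3% of all 32851 windows. The second was found in a window of Stat2, 222 bases before the start site, and in the window of the second Stat4 start site, 97 bases before it, against 3.44% of all windows. The 250 bases before the start sites are shown for the 4 genes that were higher in every pMT-10 library than in both BL/6 libraries, as 14.2% of all tested genes were, with matches in capitals. For Stat4 that order lies within counting error. They are Stat2 (chr10:128270248-128270497, plus strand), Stat4 (chr1:52007990-52008239, plus strand), Stat3 (chr11:100939541-100939790, minus strand) and Jak3 (chr8:71676133-71676382, plus strand). The window of the first Stat4 start site, which held no match, is not shown. A match describes letters and is not evidence of binding.
Stat2: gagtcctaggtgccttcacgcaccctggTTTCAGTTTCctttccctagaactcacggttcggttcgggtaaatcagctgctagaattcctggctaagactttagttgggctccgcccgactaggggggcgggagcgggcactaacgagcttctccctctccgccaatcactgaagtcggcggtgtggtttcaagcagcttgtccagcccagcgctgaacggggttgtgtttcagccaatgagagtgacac
Stat4, second start: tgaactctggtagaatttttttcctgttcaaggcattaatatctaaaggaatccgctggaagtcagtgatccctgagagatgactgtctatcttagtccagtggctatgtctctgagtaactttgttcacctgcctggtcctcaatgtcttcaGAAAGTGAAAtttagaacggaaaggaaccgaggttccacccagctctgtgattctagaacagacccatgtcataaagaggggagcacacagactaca
Stat3: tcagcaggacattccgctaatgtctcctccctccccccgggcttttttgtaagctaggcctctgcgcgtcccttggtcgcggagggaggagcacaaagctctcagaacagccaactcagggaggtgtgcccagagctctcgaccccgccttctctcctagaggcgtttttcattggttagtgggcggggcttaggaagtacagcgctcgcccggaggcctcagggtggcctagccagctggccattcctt
Jak3: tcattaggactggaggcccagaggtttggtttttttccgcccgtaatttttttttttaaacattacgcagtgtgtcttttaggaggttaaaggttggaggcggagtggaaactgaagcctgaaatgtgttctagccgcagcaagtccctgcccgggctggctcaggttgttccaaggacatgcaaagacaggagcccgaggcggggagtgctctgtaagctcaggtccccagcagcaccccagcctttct

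**Figure D1:**
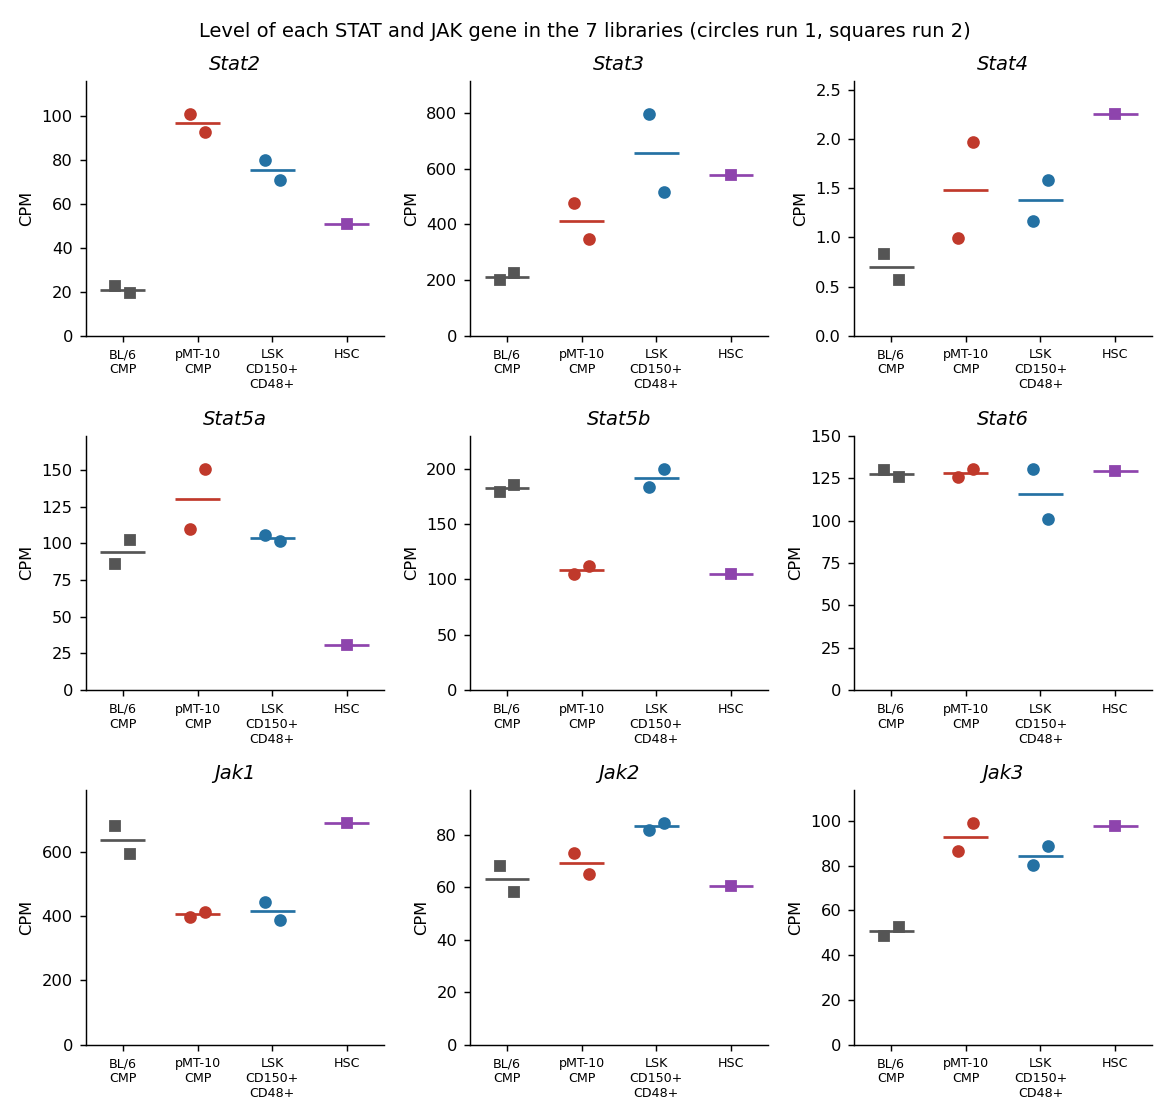
CPM (y axis, from 0, a separate scale for each gene) of the 9 STAT and JAK genes in the 7 libraries by group (x axis); each point is 1 library, circles are run 1, squares are run 2 and bars are group means. Stat2 and Jak3 sit lowest in both BL/6 libraries, Jak1 is higher in every run 2 library than in every run 1 library, and Stat6 lies between 101 and 131 CPM throughout.

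Between the CMPs of the 2 strains, Stat2, Stat3 and Jak3 were higher and Stat5b and Jak1 lower in pMT-10 mice. With an adjusted p under 0.05 taken as called, 5 of 9 genes were called where 28.0% of all tested genes were, 3 of them higher (14.3% of all genes) and 2 lower (13.7%). The median log2 fold change was 0.46 over the 9 genes and 0.01 over all tested genes. Fewer cells of a type and less RNA per cell cannot be told apart in such bulk libraries. Against the same BL/6 CMPs, and within run 2, HSC had Stat2, Stat3 and Jak3 higher and Stat5a and Stat5b lower, 5 of 9 genes where 20.3% of all genes passed (11.8% higher, 8.50% lower). LSK CD150+CD48+ cells had 4 of 9 genes called against BL/6 CMPs (3 higher, 1 lower), where 16.6% of all genes passed (8.11% higher, 8.50% lower). The 3 comparisons share the BL/6 libraries, and so share any deviation in them. Those of HSC and of LSK CD150+CD48+ cells differ in population as well as strain, so neither is a comparison of strain alone.

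Among pMT-10 populations fewer of the genes passed. LSK CD150+CD48+ cells differed from pMT-10 CMPs in 1 of 9 genes, Stat5b, which was higher, where 11.8% of all genes passed (5.92% in each direction). HSC differed from LSK CD150+CD48+ cells in 3 of 9 genes (18.8% of all genes, 10.6% higher and 8.15% lower), with Jak1 higher and Stat5a and Stat5b lower. HSC differed from pMT-10 CMPs in 3 of 9 (25.5% of all genes, 13.8% higher and 11.7% lower), with Jak1 higher and Stat2 and Stat5a lower. HSC had 1 library, whose spread was taken from the other groups. By strain over all libraries, 4 of 9 genes (Stat2, Stat3, Stat4 and Jak3) were higher in all 5 pMT-10 libraries than in both BL/6 libraries, where 29.7% of all tested genes did not overlap, 14.2% higher and 15.5% lower. For Stat4 the lowest pMT-10 and the highest BL/6 library held 9 counts each, so its place among the 4 lies within counting error. Split by run, 2 of 9 did not overlap, Jak1 higher and Stat2 lower in run 2, where 21.7% of all tested genes did not overlap, 11.5% higher and 10.2% lower.

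**Figure D2:**
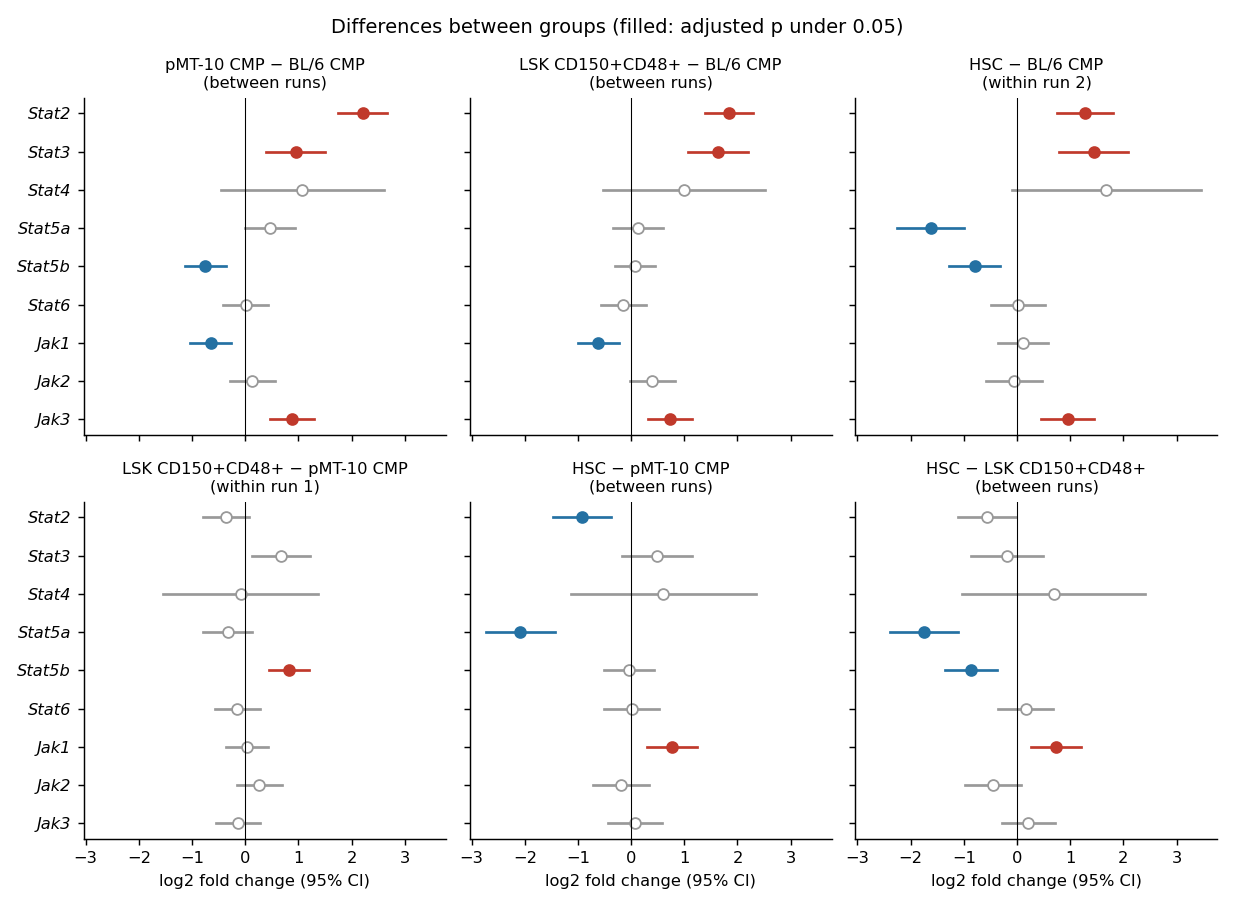
Log2 fold change with its 95% confidence interval (x axis) of each gene (y axis) in the 6 comparisons, first group minus second; filled points passed an adjusted p of 0.05 (red higher, blue lower). Stat2 is to the right of 0 in all 3 comparisons with BL/6 CMPs and Stat5a to the left in all 3 comparisons of HSC.

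Jak1, the kinase of IL-10, IL-6 family and interferon receptors, had 681 and 592 CPM in BL/6 CMPs, 398 and 414 in pMT-10 CMPs, 443 and 388 in the LSK CD150+CD48+ pair and 689 in HSC. All 3 run 2 libraries were above all 4 run 1 libraries. The log2 difference of pMT-10 from BL/6 CMPs was -0.65 with an SE of 0.17 (adjusted p = 0.0236), and differences below are likewise given ± SE. It was also lower in LSK CD150+CD48+ cells than in BL/6 CMPs (-0.62 ± 0.17, adjusted p = 0.0416), and higher in HSC than in the LSK CD150+CD48+ pair (0.73 ± 0.21, adjusted p = 0.0389) and pMT-10 CMPs (0.77 ± 0.21, adjusted p = 0.0271). Every call crossed runs. Within a run the differences were 0.04 (95% interval -0.36 to 0.43) for LSK CD150+CD48+ cells against pMT-10 CMPs and 0.12 (-0.36 to 0.59) for HSC against BL/6 CMPs, neither called, and the part of the run in the 4 calls cannot be told apart from strain and population. Without 1 or the other BL/6 library the strain difference was no longer called (adjusted p = 0.241 and 0.117). Without any 1 of the LSK CD150+CD48+ or BL/6 libraries the adjusted p rose to between 0.117 and 0.158 for HSC against the LSK CD150+CD48+ pair, between 0.0509 and 0.100 for HSC against pMT-10 CMPs, and between 0.160 and 0.383 for LSK CD150+CD48+ cells against BL/6 CMPs.

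Jak2, the kinase of the erythropoietin and GM-CSF receptors, had 68.1 and 58.2 CPM in BL/6 CMPs, 73.2 and 65.3 in pMT-10 CMPs, 82.1 and 84.5 in the LSK CD150+CD48+ pair and 60.6 in HSC. Both LSK CD150+CD48+ libraries were the highest, and the other 5 libraries lay between 58.2 and 73.2 CPM. No comparison passed. The 95% interval of the log2 difference between pMT-10 and BL/6 CMPs was -0.29 to 0.55. LSK CD150+CD48+ cells against BL/6 CMPs gave 0.40 ± 0.19 (adjusted p = 0.171), which passed without either pMT-10 CMP library (adjusted p = 0.0415 and 0.0416) and with only the groups compared (adjusted p = 0.0394).

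Jak3, which binds the common gamma chain of the IL-2 receptor family, had 48.7 and 52.7 CPM in BL/6 CMPs, 86.7 and 99.0 in pMT-10 CMPs, 80.2 and 88.9 in the LSK CD150+CD48+ pair and 97.9 in HSC. The 5 pMT-10 libraries lay above both BL/6 libraries, and no comparison among the 3 pMT-10 groups was called. HSC, with 1 library, has no spread of its own. Against BL/6 CMPs, Jak3 was 1.83-fold higher in pMT-10 CMPs (log2 0.87 ± 0.18, adjusted p = 0.00931), 1.67-fold higher in the LSK CD150+CD48+ pair (0.74 ± 0.18, adjusted p = 0.0269) and, within run 2, 1.93-fold higher in HSC (0.95 ± 0.22, adjusted p = 0.0159). All 3 calls needed both BL/6 libraries: without 1 or the other, the adjusted p was 0.135 and 0.0831, 0.280 and 0.173, and 0.159 and 0.122. Without LSK CD150+CD48+ replicate 1 or 2 the second call had an adjusted p of 0.136 and 0.138. Lymphoid markers were summed beside it, since Jak3 is known from lymphocytes. The 18 T and NK cell markers summed to 76.7 and 81.4 CPM in BL/6 CMPs, 182 and 242 in pMT-10 CMPs, 361 and 276 in the LSK CD150+CD48+ pair and 106 in HSC. Most of each sum was Nkg7, a granule gene of cytotoxic cells, while Cd3d, Zap70, Ncr1 and Klrd1 were at 0 in every library. Of the 4 markers with enough counts to be tested, 2 were called in pMT-10 CMPs and in the LSK CD150+CD48+ pair against BL/6 CMPs and 1 in HSC, each of them higher. Nkg7 had a mean of 189 CPM in pMT-10 CMPs and 305 in the LSK CD150+CD48+ pair against 74.0 in BL/6 CMPs (log2 1.35 and 2.04, adjusted p = 0.00376 and 0.000855), and the first was not called without BL/6 replicate 1 (adjusted p = 0.0506). Gzmb, which encodes granzyme B, had means of 18.8 and 11.0 CPM against 1.66 and 1.13 CPM in the BL/6 libraries (log2 3.75 and 2.97, adjusted p = 0.000630 and 0.00127), and both calls held without any single library. In HSC Klrb1c, the NK1.1 antigen gene, had 4.90 against 0.254 CPM (log2 4.19, adjusted p = 0.0185). The part of such cells in the Jak3 difference was not tested.

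Stat2, the partner of IRF9, showed the widest strain difference of the 9 genes. It had 22.7 and 19.3 CPM in BL/6 CMPs, 101 and 93.0 in pMT-10 CMPs, 80.0 and 70.9 in the LSK CD150+CD48+ pair and 51.1 in HSC. The groups did not overlap, and the order from high to low was pMT-10 CMPs, LSK CD150+CD48+ cells, HSC and BL/6 CMPs. Stat2 was 4.62-fold higher in pMT-10 than in BL/6 CMPs (log2 2.21 ± 0.20, adjusted p = 0.000554), 3.59-fold higher in the LSK CD150+CD48+ pair (1.84 ± 0.20, adjusted p = 0.000754) and, within run 2, 2.43-fold higher in HSC (1.28 ± 0.23, adjusted p = 0.00528). The first 2 passed without any single library, and the third did not without BL/6 replicate 2 (adjusted p = 0.0856). Between neighbours, pMT-10 CMPs and LSK CD150+CD48+ cells did not differ beyond their spread (-0.36 ± 0.19, adjusted p = 0.231). HSC against LSK CD150+CD48+ cells gave -0.56 ± 0.24 (adjusted p = 0.132), and was called without pMT-10 CMP replicate 1 or 2 (adjusted p = 0.0317 and 0.0316). HSC had less Stat2 than pMT-10 CMPs (-0.92 ± 0.25, adjusted p = 0.0250), and without any 1 of the BL/6 or LSK CD150+CD48+ libraries the adjusted p was between 0.0541 and 0.0582.

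Stat3, the STAT of IL-10 and IL-6 family receptors, had 199 and 226 CPM in BL/6 CMPs, 475 and 347 in pMT-10 CMPs, 796 and 515 in the LSK CD150+CD48+ pair and 578 in HSC. The lowest pMT-10 library stood above the higher BL/6 library. Stat3 was 1.94-fold higher in pMT-10 than in BL/6 CMPs (log2 0.95 ± 0.25, adjusted p = 0.0209), 3.09-fold higher in the LSK CD150+CD48+ pair (1.63 ± 0.25, adjusted p = 0.00441) and, within run 2, 2.72-fold higher in HSC (1.44 ± 0.29, adjusted p = 0.00836). The strain call was lost without either BL/6 library (adjusted p = 0.170 and 0.0932), the second without LSK CD150+CD48+ replicate 1 (0.0787) or BL/6 replicate 1 (0.0591), and the third without BL/6 replicate 1 (0.0744). Among pMT-10 groups, LSK CD150+CD48+ cells against CMPs gave 0.67 ± 0.25 (adjusted p = 0.102), HSC against CMPs 0.49 ± 0.29 (adjusted p = 0.246) and HSC against the LSK CD150+CD48+ pair -0.18 ± 0.30 (adjusted p = 0.701). When pMT-10 CMP replicate 1 was left out, the first 2 were called (adjusted p = 0.00630 and 0.0288), as was the first with no filter on low counts (0.0123).

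Stat4, the STAT of the IL-12 receptor, was near the floor, with 9 and 7 counts in BL/6 CMPs, 9 and 17 in pMT-10 CMPs, 10 and 22 in the LSK CD150+CD48+ pair and 17 in HSC. In CPM these were 0.831 and 0.566, 0.993 and 1.97, 1.17 and 1.58, and 2.25. The BL/6 libraries were the lowest. The highest BL/6 and the lowest pMT-10 library had the same count, and their 95% counting intervals were 0.380 to 1.58 and 0.454 to 1.89 CPM. No comparison passed, and the 95% interval of the strain difference was -0.46 to 2.62 in log2.

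Stat5a and Stat5b, the paralogous STATs of the erythropoietin and GM-CSF receptors, did not move together. Stat5a had 86.2 and 102 CPM in BL/6 CMPs, 110 and 151 in pMT-10 CMPs, 105 and 101 in the LSK CD150+CD48+ pair and 30.7 in HSC. HSC stood apart below all 6 other libraries, which lay between 86.2 and 151 CPM. HSC had 3.07-fold less Stat5a than BL/6 CMPs within run 2 (log2 -1.62 ± 0.28, adjusted p = 0.00427), 4.24-fold less than pMT-10 CMPs (-2.08 ± 0.29, adjusted p = 0.00175) and 3.37-fold less than in the LSK CD150+CD48+ libraries (-1.75 ± 0.28, adjusted p = 0.00497). The third call was lost without LSK CD150+CD48+ replicate 1 (adjusted p = 0.0567). Erythroid markers also stood apart in HSC: 6 of them in the tables summed to between 6532 and 10646 CPM in the other libraries and to 438 in HSC, nearly all of it Car1, and their part in the Stat5a difference was not tested. Between the strains Stat5a gave 0.46 ± 0.21 (adjusted p = 0.122), and between LSK CD150+CD48+ cells and pMT-10 CMPs -0.33 ± 0.21 (adjusted p = 0.311). Both were called without pMT-10 CMP replicate 1 (adjusted p = 0.00463 and 0.0212).

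Stat5b fell into a high and a low pair of groups. It had 179 and 185 CPM in BL/6 CMPs, 183 and 200 in the LSK CD150+CD48+ pair, 105 and 112 in pMT-10 CMPs and 105 in HSC. The difference between the 2 high groups was not called (0.07 ± 0.17, adjusted p = 0.793), nor was that between the 2 low ones (-0.05 ± 0.21, adjusted p = 0.887). Of the low groups, HSC has 1 library and no spread of its own. Each high group differed from each low one. In pMT-10 CMPs Stat5b was 1.68-fold lower than in BL/6 CMPs (log2 -0.75 ± 0.17, adjusted p = 0.0121), and within run 1 it was 1.77-fold higher in LSK CD150+CD48+ cells than in pMT-10 CMPs (0.82 ± 0.17, adjusted p = 0.0177). HSC had less than LSK CD150+CD48+ cells (-0.87 ± 0.21, adjusted p = 0.0244) and, within run 2, than BL/6 CMPs (-0.80 ± 0.21, adjusted p = 0.0295). Without 1 or the other BL/6 library the strain difference had an adjusted p of 0.115 and 0.129. Without any 1 BL/6 or LSK CD150+CD48+ library it was between 0.0646 and 0.129 for LSK CD150+CD48+ cells against pMT-10 CMPs, between 0.0658 and 0.103 for HSC against the LSK CD150+CD48+ pair, and between 0.0592 and 0.160 for HSC against BL/6 CMPs. With only the 4 libraries of the run 1 comparison, its adjusted p was 0.0641.

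Stat6, the STAT of the IL-4 and IL-13 receptors, had 130 and 126 CPM in BL/6 CMPs, 126 and 131 in pMT-10 CMPs, 130 and 101 in the LSK CD150+CD48+ pair and 129 in HSC. No comparison passed, and the 95% interval of the strain difference was -0.41 to 0.43 in log2.

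Since Stat5b, Stat5a and Stat3 are neighbours, their counts were also set against each other within each library, where the library total cancels. Stat5a to Stat5b was 0.481 and 0.553 in BL/6 CMPs, 1.05 and 1.35 in pMT-10 CMPs, 0.576 and 0.507 in the LSK CD150+CD48+ pair and 0.293 in HSC. Both pMT-10 CMP libraries were above every other library, and HSC was below them all. Stat3 to Stat5b was 1.11 and 1.22 in BL/6 CMPs, 4.53 and 3.10 in pMT-10 CMPs, 4.34 and 2.58 in the LSK CD150+CD48+ pair and 5.50 in HSC, so every pMT-10 library exceeded both BL/6 libraries. Stat3 to Stat5a was 2.30 and 2.20 in BL/6 CMPs, 4.33 and 2.30 in pMT-10 CMPs, 7.55 and 5.08 in the LSK CD150+CD48+ pair and 18.8 in HSC. The ratios are a description. An exact two-sided permutation test of 2 libraries against 2 cannot go below p = 0.333, and a ratio of 2 amplicons is not a ratio of molecules.

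**Figure D3:**
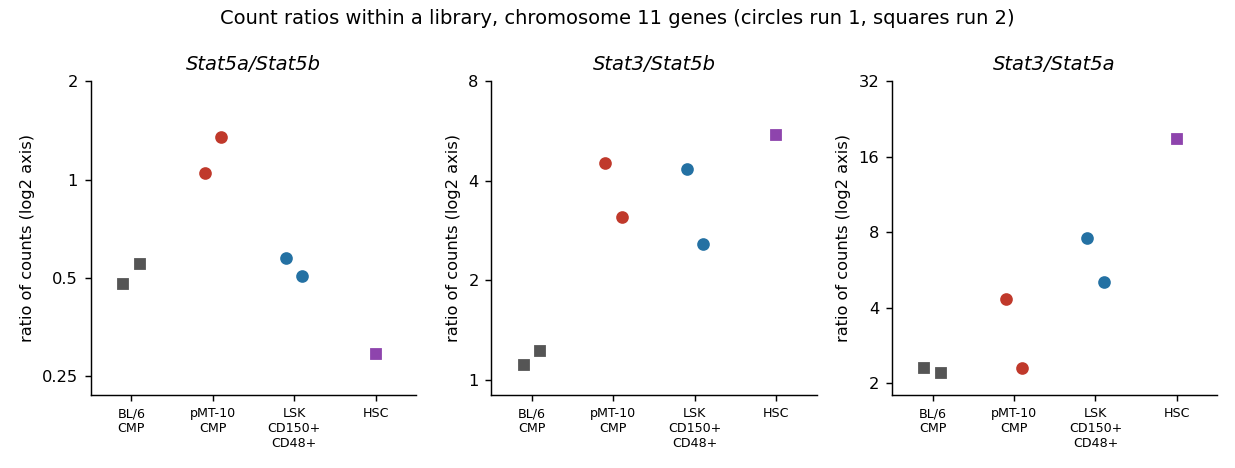
Ratio of counts within a library (y axis, log2 scale) for the 3 neighbouring genes of chromosome 11, by group (x axis); each point is 1 library, circles are run 1 and squares are run 2. Stat5a to Stat5b exceeds 1 for each pMT-10 CMP library and is 0.293 for HSC, and Stat3 to Stat5b is lowest in the 2 BL/6 libraries.

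Receptor chains that bind JAKs were mostly higher in pMT-10 CMPs than in BL/6 CMPs where they passed. Of 26 tested of 36 listed, 9 were higher and 1 lower, against 14.3% of all tested genes higher and 13.7% lower, and the list's median log2 fold change was 0.19 against 0.01 for all genes. At an unadjusted p under 0.05 by edgeR, 10 were higher and 5 lower. Csf2rb2, the IL-3-specific beta chain of the mouse, had 123 against 4.07 CPM (log2 4.91 ± 0.25), and Csf2rb, the beta chain shared by IL-3, IL-5 and GM-CSF receptors, had 95.1 against 8.89 (3.42 ± 0.23). The pair are close copies of each other, so reads could be assigned to either. Il15ra had 37.6 against 6.98 CPM (2.43 ± 0.23). The IL-10 receptor chains, named after their values were seen, did not pass between the strains: Il10ra had 13.6 against 12.1 CPM and Il10rb 98.9 against 176. Without pMT-10 CMP replicate 1 Il10rb was called lower (adjusted p = 1.3e-06). Both other pMT-10 populations had less Il10ra than the CMPs of either strain. LSK CD150+CD48+ cells had 2.78 CPM, within run 1 below pMT-10 CMPs (log2 -2.28 ± 0.42, adjusted p = 0.0119) and across runs below BL/6 CMPs (-2.12 ± 0.42, adjusted p = 0.0118). HSC had 3.44 CPM, within run 2 below BL/6 CMPs (-1.82 ± 0.55, adjusted p = 0.0454) and across runs below pMT-10 CMPs (-1.98 ± 0.55, adjusted p = 0.0302). None of the 4 calls held without LSK CD150+CD48+ replicate 1 or 2, and 3 of them, all but the one within run 1, were also lost without either BL/6 library, with an adjusted p of at most 0.153. Il10rb had 269 CPM in LSK CD150+CD48+ cells and 126 in HSC and passed in none of the 6 comparisons, the nearest being LSK CD150+CD48+ cells against pMT-10 CMPs (1.45 ± 0.41, adjusted p = 0.0514). That outcome depended on the pMT-10 CMP pair. Without its replicate 1 Il10rb was called in each of the 6 comparisons. Without its replicate 2 it was called in all but pMT-10 CMPs against BL/6 CMPs and HSC against pMT-10 CMPs. Within run 1, 6 receptor chains were higher and 3 lower in LSK CD150+CD48+ cells than in pMT-10 CMPs, where 5.92% of all genes passed in each direction. Il2rg, the common gamma chain that JAK3 binds, had 6.27 against 1.13 CPM (2.46 ± 0.44) and Csf3r, the G-CSF receptor, had 0.310 against 20.8 CPM. Within run 2, 10 chains were higher and 3 lower in HSC than in BL/6 CMPs (11.8% and 8.50% of all genes), and Il15ra had 67.2 against 6.98 CPM (3.27 ± 0.25).

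Of the 8 partners and adaptors, 3 were higher and 1 lower in pMT-10 than in BL/6 CMPs, where 14.3% of all tested genes were higher and 13.7% lower. Irf9, which joins STAT2, had 87.1 against 46.2 CPM (log2 0.92 ± 0.18). The histone acetyltransferases went opposite ways, with Crebbp at 160 against 94.1 CPM (0.76 ± 0.19) and Ep300 at 84.3 against 205 (-1.28 ± 0.19). Of 16 tested negative regulators, 1 was higher and 4 lower, against the same 14.3% and 13.7%. Usp18, which restrains the type I interferon receptor, had 29.8 against 10.9 CPM (1.45 ± 0.25), while the phosphatase Ptpn1 had 44.4 against 145 (-1.71 ± 0.21) and the ubiquitin ligase Cblb 49.6 against 134 (-1.43 ± 0.21). Between LSK CD150+CD48+ cells and pMT-10 CMPs edgeR called 0 negative regulators (3 higher and 1 lower at an unadjusted p under 0.05), and DESeq2 called 2 higher and 0 lower. Between HSC and LSK CD150+CD48+ cells edgeR also called 0 (1 higher and 2 lower unadjusted), as did DESeq2.

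Of the listed targets of STAT3 and STAT5, more were called higher than lower against BL/6 CMPs. The list was chosen with earlier results of these data known. Cish and Socs3 were listed with the negative regulators instead. Both had too few counts to be tested, with group means of at most 0.0584 and 0.472 CPM. In pMT-10 CMPs 9 of 17 were higher and 1 lower (14.3% and 13.7% of all tested genes), with a median log2 fold change of 0.77 against 0.01 for all genes. Cebpb, a transcription factor of myeloid cells, had 46.0 against 9.35 CPM (2.30 ± 0.26), the cytokine gene Osm 28.0 against 8.28 (1.76 ± 0.25) and the kinase gene Pim2 30.4 against 11.6 (1.39 ± 0.24). Myc was the one that was lower, at 630 against 1370 CPM. Within run 2, 10 of 17 were higher and 1 lower in HSC (11.8% and 8.50% of all tested genes), with a median of 1.38 against -0.01. Id1 had 45.1 against 1.67 CPM (4.74 ± 0.40), Pim2 110 against 11.6 (3.24 ± 0.27) and Bcl3 28.7 against 3.20 (3.16 ± 0.33). Within run 1, 1 target was higher (Mcl1, 132 against 64.1 CPM) and 1 lower (Cebpb, 19.8 against 46.0) of 17 in LSK CD150+CD48+ cells, where 5.92% of all genes passed in each direction. Targets of the STAT2-IRF9 complex, 14 of which were tested, had 6 higher and 0 lower in pMT-10 than in BL/6 CMPs by edgeR, against 14.3% and 13.7% of all tested genes, with a median of 0.80 against 0.01. At an unadjusted p under 0.05, 1 was lower, and DESeq2 called 7 higher and 0 lower. Zbp1 had 62.1 against 5.53 CPM (3.49 ± 0.21), Isg20 238 against 52.5 (2.18 ± 0.22) and Oasl2 151 against 54.3 (1.48 ± 0.20). Of the targets not called, log2 values were 0.22 for Ifit1, 0.17 for Oasl1, 0.82 for Ifi44 and 0.79 for Xaf1. They were -0.05 for Ifit2, -0.19 for Oas1a, -0.85 for Rsad2 and -1.81 for Mx2. In HSC, within run 2, 4 of 14 were higher and 1 lower than in BL/6 CMPs (11.8% and 8.50% of all tested genes). Without BL/6 replicate 1 or 2, the higher counts of the strain comparison were 5 and 5 for receptor chains, 0 and 1 for negative regulators, 0 and 0 for partners, 4 and 3 for STAT3 and STAT5 targets, and 5 and 4 for STAT2-IRF9 targets.

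In the comparisons that crossed runs and were not described above, the lists are read with the same numbers tested, 26 receptor chains, 8 partners, 16 negative regulators, 17 STAT3 and STAT5 targets and 14 STAT2-IRF9 targets. In LSK CD150+CD48+ cells against BL/6 CMPs 8.11% of all tested genes were higher and 8.50% lower. There 9 receptor chains were higher and 3 lower, 3 partners higher and 1 lower, and 1 negative regulator higher and 2 lower. Of the STAT3 and STAT5 targets 10 were higher and 0 lower by edgeR (1 lower at an unadjusted p under 0.05, 0 by DESeq2), and of the STAT2-IRF9 targets 5 were higher and 2 lower. Csf2rb2 (205 against 4.07 CPM), Csf2rb (170 against 8.89 CPM) and Il12rb1, a chain of the IL-12 receptor (29.8 against 3.23 CPM), had the smallest p among the receptor chains. Against LSK CD150+CD48+ cells, where 10.6% of all tested genes were higher and 8.15% lower, HSC had 7 receptor chains higher and 4 lower, 5 STAT3 and STAT5 targets higher and 1 lower, and 4 STAT2-IRF9 targets higher and 2 lower. Of the partners, edgeR called 0 higher (1 at an unadjusted p under 0.05, 0 by DESeq2) and 1 lower. Il4ra, the IL-4 receptor chain, had 76.5 against 19.3 CPM (log2 1.98 ± 0.27), while its STAT, Stat6, was not called. Against pMT-10 CMPs, where 13.8% of all tested genes were higher and 11.7% lower, HSC had 7 receptor chains higher and 5 lower, 1 negative regulator higher and 1 lower, 6 STAT3 and STAT5 targets higher and 1 lower, and 2 STAT2-IRF9 targets higher and 2 lower. Of the partners, edgeR called 0 higher (1 at an unadjusted p under 0.05, 1 by DESeq2) and 3 lower. Irf9 was lower in HSC than in pMT-10 CMPs (52.7 against 87.1 CPM, log2 -0.73 ± 0.23), as Stat2 was.

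**Figure D4:**
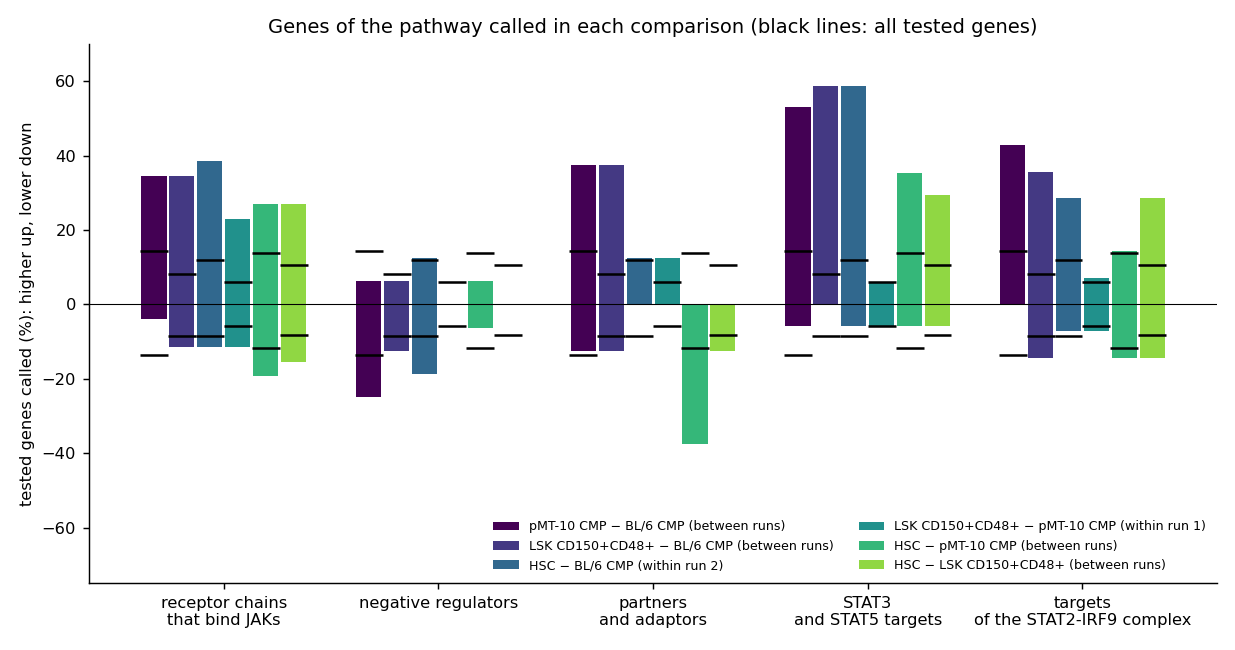
Share of the tested genes of each list called higher (above 0) or lower (below 0) in the 6 comparisons (y axis, percent; x axis, list); black lines give the same shares over all tested genes. The STAT3 and STAT5 targets reach the highest share called higher, 10 of 17 in both LSK CD150+CD48+ cells and HSC against BL/6 CMPs.

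The genes whose mean-centred log2 CPM followed each member most closely over the 7 libraries were sought among 8618 genes (8619 for Stat4, itself under the minimum level), by the root mean square difference in log2. Stat2 was nearest to Cnnm4 (0.191) and Lag3 (0.202), Stat3 to Pbx3 (0.130) and Ppm1m (0.167), and Stat4 to Chpt1 (0.147) and Clasrp (0.184). Stat5a was nearest to Exoc7 (0.130) and Pip4k2c (0.151), and Stat5b to Cdc42se1 (0.0956) and Notch2 (0.102). Notch2 had 319 and 307 CPM in BL/6 CMPs, 158 and 182 in pMT-10 CMPs, 316 and 294 in the LSK CD150+CD48+ pair and 156 in HSC, the same high and low pairs as Stat5b. Stat6 was nearest to Casp8ap2 (0.0609) and Dhodh (0.0610), Jak1 to Zfp687 (0.0607) and Eri3 (0.0801), Jak2 to Ncapd3 (0.0688) and Lipe (0.0784), and Jak3 to Saysd1 (0.0791) and Grik5 (0.0824). The likeness is a description of these 7 libraries.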

How the data were processed

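The deposited values are raw read counts per gene in 2 tables, from the Ion AmpliSeq Transcriptome mouse kit on total RNA of sorted cells, per the labels' protocols. Build mm10 was used, per the submitters' processing notes, with an aligner and a counting program not given in the sources used here. Reads carry no molecular identifiers, and the stated floors therefore cover counting error only.

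The analysis of counts used edgeR 4.0.16 under R 4.3.3. Genes were filtered with filterByExpr (minimum count 10), libraries were scaled by TMM, and all 7 entered 1 fit with a mean per group (3 residual degrees of freedom). P-values of quasi-likelihood F-tests received Benjamini-Hochberg adjustment over 11429 genes, and an adjusted p under 0.05 was called. Standard errors were derived from the F statistics. CPM uses TMM-scaled totals. The test was run on simulated counts first.

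Alternatives were RLE size factors, library totals, DESeq2 1.42.0, no filter, a minimum count of 50, each replicate left out, only the groups compared and a replicate block. The 9 genes and the gene lists were chosen with earlier results of these data known. Genes of a list were named from the up to 3 called with the smallest p in a comparison, and the nearest genes by the smallest root mean square difference among genes with a mean of 5 CPM or more. Further genes of the marker lists, of the negative regulators and of the STAT2-IRF9 targets were named after their values had been seen. Of the list genes that the first rule picks, 1 is not reported here, and the counts of calls include it.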

Additional observations from a re-analysis of the deposited data

How the results depend on the processing

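Of 54 pairs of a gene and a comparison 21 were called, 4 of them under every setting run (Stat2 in pMT-10 CMPs and in LSK CD150+CD48+ cells against BL/6 CMPs, Stat5a in HSC against pMT-10 and against BL/6 CMPs), and 0 called pairs turned sign. RLE size factors, library totals, DESeq2 and a minimum count of 50 left the number of the 9 genes called unchanged in all 6 comparisons. With each replicate left out, the number called ran from 1 to 6 for pMT-10 against BL/6 CMPs, from 0 to 3 for LSK CD150+CD48+ cells against pMT-10 CMPs, from 0 to 4 for HSC against LSK CD150+CD48+ cells, from 1 to 4 for HSC against pMT-10 CMPs, from 1 to 5 for LSK CD150+CD48+ cells against BL/6 CMPs and from 2 to 5 for HSC against BL/6 CMPs. LSK CD150+CD48+ cells against pMT-10 CMPs gave 2 with no filter and 0 with only the groups compared. Over all genes the calls of the 6 comparisons, in that order, were 3204 (582 to 5268), 1354 (44 to 4274), 2147 (266 to 4811), 2912 (1733 to 5222), 1899 (140 to 4575) and 2320 (815 to 4828). A left-out library leaves fewer residual degrees of freedom. In every comparison the highest number came without a library of the pMT-10 CMPs, the pair with the widest spread. The lowest came without a BL/6 or LSK CD150+CD48+ library. Why the numbers rose or fell was not tested.

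The signs that turned belong to differences that were not called. With no filter the log2 value for Stat6 was -0.0081 in pMT-10 against BL/6 CMPs, -0.0061 in HSC against pMT-10 CMPs and -0.014 in HSC against BL/6 CMPs, and with a minimum count of 50 the second was -0.016. With library totals Jak1 was -0.0078 in LSK CD150+CD48+ cells against pMT-10 CMPs and Jak2 0.00028 in HSC against BL/6 CMPs. With each replicate left out, Stat6 ran from -0.019 to 0.032 in pMT-10 against BL/6 CMPs, from -0.34 to 0.022 in LSK CD150+CD48+ cells against pMT-10 CMPs, from -0.013 to 0.35 in HSC against LSK CD150+CD48+ cells, from -0.051 to 0.035 in HSC against pMT-10 CMPs, from -0.34 to 0.030 in LSK CD150+CD48+ cells against BL/6 CMPs and from -0.055 to 0.016 in HSC against BL/6 CMPs. Jak1 then ran from -0.061 to 0.13 in LSK CD150+CD48+ cells against pMT-10 CMPs and from -0.033 to 0.17 in HSC against BL/6 CMPs, and Stat4 from -0.49 to 0.49 in the former. Stat3 ran from -0.46 to 0.17 in HSC against LSK CD150+CD48+ cells, Jak3 from -0.015 to 0.17 in HSC against pMT-10 CMPs and Jak2 from -0.22 to 0.012 in HSC against BL/6 CMPs. The cause was not tested.

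Same-numbered libraries of different groups did not deviate together (correlations of their deviations -0.019, -0.019 and -0.058). With 2 libraries per group, these values cannot show whether same-numbered libraries share a mouse. With the replicate block the numbers called were 5, 1 and 3 for pMT-10 against BL/6 CMPs, LSK CD150+CD48+ cells against pMT-10 CMPs and LSK CD150+CD48+ cells against BL/6 CMPs, and Jak1 in the third was no longer called (adjusted p = 0.0652). The list counts and the values of Il10ra, Il10rb, Gzmb and Nkg7 without each replicate were added after seeing the data.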

Other observations

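Tyk2, the remaining member of the Janus kinase family, was looked up after the values of the other genes had been seen. Its mean was 68.3 CPM in BL/6 CMPs and 47.9 CPM in pMT-10 CMPs. The LSK CD150+CD48+ libraries had a mean of 55.9 CPM, and HSC had 52.8 CPM. It passed in none of the 6 comparisons in the edgeR fit. The smallest adjusted p belonged to pMT-10 against BL/6 CMPs, with a log2 difference of -0.51 ± 0.21 (SE, adjusted p = 0.0899).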
